A study of Mus musculus with 9 samples.

Results

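Intermediate filaments are the rope-like cytoskeletal polymers of animal cells, and the genes that build them differ by cell type. Keratins assemble only as pairs of a type I chain (here Krt18 and Krt19) with a type II chain (here Krt7 and Krt8), and Krt8 with Krt18 is the pair of simple epithelia and the first keratin pair of the mouse embryo. Vimentin, encoded by Vim, is the filament protein typical of mesenchymal cells and is also made by many cultured cells. Lamins line the inner face of the nuclear envelope: Lmnb1 and Lmnb2 encode B-type lamins, which nearly all cells carry, and Lmna encodes lamins A and C, which are known to be scarce in pluripotent cells and abundant in stiff, differentiated tissues. These 8 genes were chosen by name, as the keratins of simple epithelia, vimentin and the 3 lamin genes, out of 35896 genes for which transcripts were quantified. All 8 passed the expression filter.

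The libraries come from E14, a mouse embryonic stem cell line, grown on gelatin in serum-containing medium, and the series asks what the Arp2/3 complex, the nucleator of branched actin filaments, contributes when these cells differentiate. Control cells with LIF2i were held in self-renewal with the cytokine LIF, 1 µM of the MEK inhibitor PD0325901 and 1 µM of the GSK3β inhibitor CHIR99021. Control cells without LIF2i spent 72 h in medium lacking all of these, which starts spontaneous differentiation. CK666 cells without LIF2i spent the same 72 h with 80 µM CK666, a small-molecule Arp2/3 inhibitor given from a DMSO stock. The labels do not say whether controls received DMSO, so drug and solvent cannot be told apart. The labels name no genetic change, all groups share 1 cell line, and each holds 3 libraries that the study describes as paired biological replicates.

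The libraries held 16894327 to 22550952 estimated counts, so that 3 counts, taken as the floor of detection, equal 0.133 to 0.178 CPM (estimated counts relative to the library total). The libraries numbered 1 stood apart in all 3 groups. They had 15637 to 17551 genes above 0 against 18080 to 18636 in the other libraries, although they were the deepest of their groups. Values without replicate 1 are therefore given beside the calls and ratios in which these libraries differ most from the others. The 7 pluripotency markers were above 1 TPM (a level per transcript length) in all 9 libraries, with a summed level of 3458 to 4073 TPM with LIF2i, 2173 to 2305 without it and 2057 to 2502 with CK666. In bulk RNA, fewer cells of a type and less RNA per cell cannot be told apart, which holds for every value below.

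After LIF2i withdrawal all 4 keratins, Krt18, Krt8, Krt19 and Krt7, rose, Vim and Lmna fell, and Lmnb1 and Lmnb2 were not called. Thus 6 of 8 genes were called in edgeR's quasi-likelihood test with the replicate number as a block, beside 40.7% of the 14648 genes tested (21.1% raised, 19.7% lowered). Without the block, 24.0% of all genes and 3 of the 8 were called (Vim, Krt8 and Krt18). Under CK666 1 gene of 8, Krt19, was called and lower, beside 2.05% of all genes (1.15% raised, 0.894% lowered). Without the block no gene of 14648 was called for CK666 (0%), with 1251 at an unadjusted p under 0.05. Between CK666-treated withdrawn cells and self-renewing cells 5 of 8 were called (Krt18 and Krt7 higher, Vim, Lmna and Lmnb2 lower), beside 36.9% of all genes (19.8% raised, 17.1% lowered), or 4 of 8 beside 20.2% without the block. With replicate 1 left out of all groups the counts were 5, 4 and 7 of 8, beside 44.8%, 12.3% and 41.6% of the 14716 genes then tested. The 3 comparisons share their groups, so their results are not independent of each other.

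**Figure D1:**
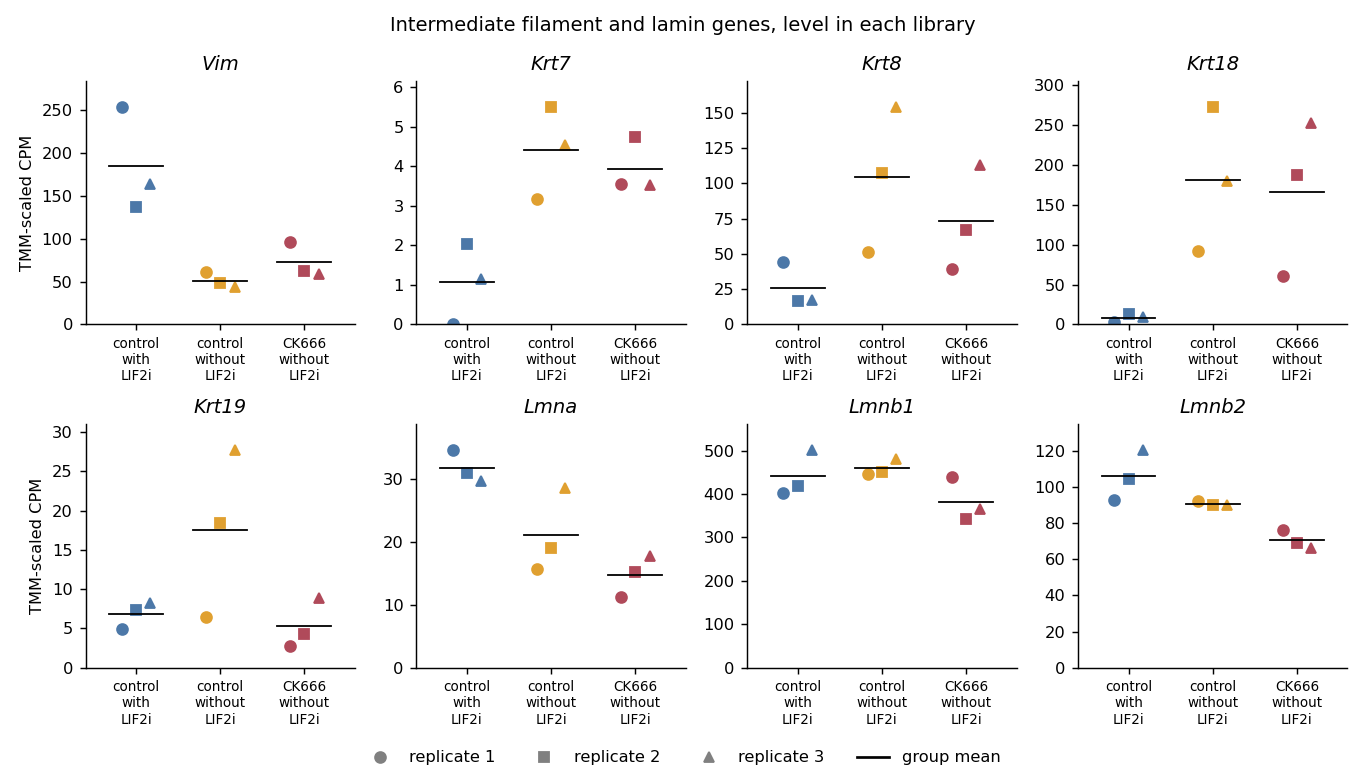
Level of each gene (CPM after TMM scaling, linear axes from 0) in each of the 9 libraries, with circles, squares and triangles for replicates 1, 2 and 3 and a line for the group mean. Krt18 is at most 12.5 CPM with LIF2i and at least 60.1 CPM in all 6 withdrawn libraries, while Vim is at least 137 CPM with LIF2i and at most 95.8 CPM in the withdrawn ones.

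**Figure D2:**
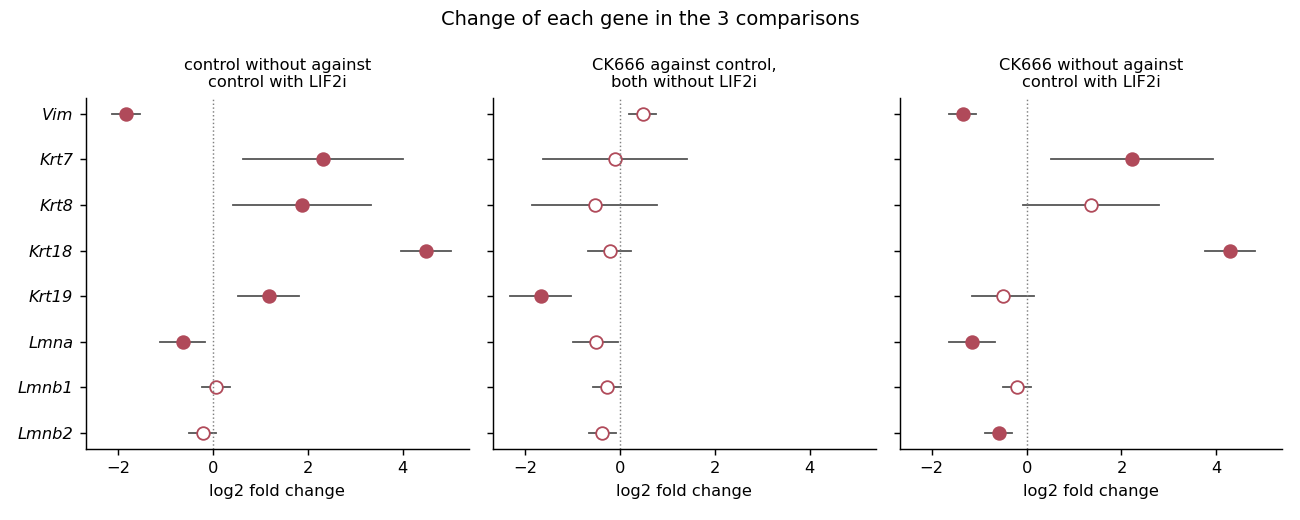
Log2 fold change of each gene in the 3 comparisons, from edgeR's quasi-likelihood fit with the replicate block, with its 95% confidence interval as a line and filled points for an adjusted p under 0.05. The intervals of Krt7 and Krt8 are the widest, and the point of Krt19 lies right of 0 for withdrawal and left of 0 for CK666.

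Krt18, the type I partner of Krt8, changed most. It stood at 3.34, 12.5 and 9.48 CPM in replicates 1 to 3 with LIF2i, at 92.1, 272 and 180 CPM without LIF2i, and at 60.1, 187 and 252 CPM with CK666. Every withdrawn library was above every self-renewing one. The rise on withdrawal was 22.5-fold (log2 fold change 4.49, SE 0.24, adjusted p = 3.96e-06, edgeR), with same-numbered pairs at 27.6-, 21.7- and 19.0-fold. In the CK666 cells Krt18 was 19.4-fold above self-renewing cells (log2 4.28, SE 0.24, adjusted p = 5.75e-06, edgeR). CK666 against withdrawn control gave a log2 difference of -0.22 (95% confidence interval -0.67 to 0.24, adjusted p = 0.61, edgeR), and the pairs did not move together: pairs 1 and 2 were lower with CK666 and pair 3 was 1.40-fold higher. Both comparisons with self-renewing cells passed the test under all 23 alternative settings.

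Krt8, the type II chain that pairs with Krt18, was less even between replicates. It stood at 44.3, 16.4 and 17.0 CPM with LIF2i, at 51.5, 107 and 154 CPM without it, and at 39.6, 66.5 and 113 CPM with CK666. The self-renewing library of replicate 1 was thus higher than the other self-renewing ones and higher than the CK666 library of its own number. On withdrawal Krt8 rose 3.68-fold (log2 1.88, SE 0.61, adjusted p = 0.046, edgeR), and by pair 1.16-, 6.52- and 9.05-fold. Without replicate 1 the log2 change was 2.96 (adjusted p = 3.56e-06, edgeR), and without the self-renewing library of replicate 1 alone it was 2.92. Leaving out any library of replicate 2 or 3, or either number as a whole, gave log2 changes of 1.30 to 1.96 that missed the threshold (adjusted p from 0.078 to 0.43, edgeR).

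In the CK666 cells Krt8 was 2.56-fold above self-renewing cells, which missed the threshold (log2 1.35, SE 0.60, adjusted p = 0.12, edgeR). Without replicate 1 that difference was 2.38 on the log2 scale and passed (adjusted p = 1.25e-05, edgeR). Against withdrawn controls Krt8 was lower with CK666 in all 3 pairs, by 1.30-, 1.61- and 1.36-fold, and the groups overlapped (log2 -0.53, 95% confidence interval -1.85 to 0.79, adjusted p = 0.66, edgeR). Without replicate 1, where the spread estimate no longer holds its self-renewing library, the log2 difference of -0.58 passed (adjusted p = 0.045, edgeR), and without that library alone -0.52 did (adjusted p = 0.034).

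Krt8 and Krt18 lie next to each other on chromosome 15 in GRCm38, Krt8 at 101996698 to 102004482 on the minus strand and Krt18 at 102028180 to 102032027 on the plus strand. They are 23697 bases apart and read away from each other. Their RefSeq promoters (GRCm38.p6) are shown because the 2 genes form 1 filament and were both called for withdrawal; each run ends at the base before the annotated first exon and is read 5′ to 3′ on the gene's strand. The upstream part of Krt18 is chr15:102027966-102028179 on the plus strand, and that of Krt8 is chr15:102004483-102004592 on the minus strand.
Krt18: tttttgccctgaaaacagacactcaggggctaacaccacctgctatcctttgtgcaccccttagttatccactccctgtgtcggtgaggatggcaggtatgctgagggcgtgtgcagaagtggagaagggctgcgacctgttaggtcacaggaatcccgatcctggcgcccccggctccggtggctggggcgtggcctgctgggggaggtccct
Krt8: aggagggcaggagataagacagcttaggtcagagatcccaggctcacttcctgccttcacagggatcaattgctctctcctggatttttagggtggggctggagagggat
Neither printed stretch holds any of the motifs searched on both strands, so no base is in capitals. In the 300-base windows around RefSeq starts, TATAAA was found for Krt8 and Vim and in 14.2% of 27025 promoters. In Krt8 the matches begin at -1 and -3 from the RefSeq start, so they lie across the start itself. GGGCGG, the core of the Sp1 site, was found for Krt7 and for the first promoter of Lmna and of Lmnb2 and in 35.9% of all. TGANTCA, the AP-1 site, was found for the first Lmna promoter and in 7.93% of all, and GGAATG, a TEAD site, and the CArG box of serum response factor were in none of these windows (14.6% and 1.57% of all). Promoters of 6 of the 8 genes were in the table, and a match of letters is a description only.

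Krt19 is a type I keratin of simple and ductal epithelia with an unusually short tail. It stood at 4.91, 7.37 and 8.20 CPM with LIF2i, at 6.51, 18.4 and 27.7 CPM without it, and at 2.80, 4.30 and 8.82 CPM with CK666. Within each replicate number the withdrawn control was the highest library, but the groups overlapped, since replicate 1 was low throughout. Krt19 rose 2.25-fold on withdrawal (log2 1.17, SE 0.28, adjusted p = 0.0093, edgeR), and by pair 1.33-, 2.49- and 3.38-fold. With CK666 it was 3.18-fold below withdrawn controls (log2 -1.67, 95% confidence interval -2.31 to -1.03, adjusted p = 0.030, edgeR), lower in 3 of 3 pairs by 2.33-, 4.27- and 3.14-fold. CK666 cells were at a log2 difference of -0.50 from self-renewing cells (SE 0.29, adjusted p = 0.20, edgeR).

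Both Krt19 calls were sensitive to the fit. Without the block the adjusted p was 0.107 for withdrawal and 0.413 for CK666 (edgeR). The CK666 call passed under 12 of 23 alternatives, with a log2 change between -1.94 and -1.45 and an adjusted p between 1.65e-05 and 0.413. Without replicate 2 it was -1.49 and without replicate 3 it was -1.69, both past no threshold (adjusted p = 0.28 and 0.31, edgeR), and leaving out any single withdrawn library of these numbers gave -1.50 to -1.84 (adjusted p from 0.105 to 0.204). Without replicate 1 it was -1.86 and passed. The withdrawal call was lost without replicate 2 (1.09) or 3 (0.89), without either of their withdrawn control libraries (1.02 and 1.04), and without the self-renewing library of replicate 3 (0.89). Without replicate 1 it was 1.55 and passed (adjusted p = 0.00070, edgeR). The gene lies on chromosome 11 at 100140810 to 100148665, minus strand. Its only protein-coding transcript, Krt19-201, was estimated at 2.92 to 6.67 TPM with LIF2i, 6.33 to 24.1 TPM without it and 1.60 to 8.76 TPM with CK666, and was the highest in the withdrawn control of each replicate number. Summed over its 3 transcripts, however, the self-renewing library of replicate 1 was at 10.6 TPM and its withdrawn partner at 10.01 TPM.

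Krt7, a type II keratin of ductal and trophoblast epithelium, was the lowest gene of the set in every group. It was listed at 0 in the self-renewing library of replicate 1, with 2.04 and 1.15 CPM in the others, and stood at 3.18, 5.50 and 4.53 CPM without LIF2i and at 3.55, 4.76 and 3.52 CPM with CK666. All withdrawn libraries were above all self-renewing ones, and CK666 libraries lay among the withdrawn controls. Krt7 rose on withdrawal (log2 2.32, SE 0.75, adjusted p = 0.034, edgeR) and was higher in CK666 cells than in self-renewing ones (log2 2.22, SE 0.76, adjusted p = 0.045). The fitted size depends on the library at 0: pairs 2 and 3 gave 2.70- and 3.93-fold, and without replicate 1 the log2 changes were 1.70 for withdrawal (adjusted p = 0.0034, edgeR) and 1.39 against self-renewal (adjusted p = 0.011). These calls held under 11 and 9 of 23 alternatives, and without the block the adjusted p was 0.136 and 0.179. The withdrawal call was lost without replicate 2 (log2 3.11), without replicate 3 (2.61), and without any of 5 single libraries (2.15 to 2.62), and the call for CK666 against self-renewal without replicate 2 (3.06), replicate 3 (2.64) or any of 7 single libraries (1.81 to 2.61). CK666 against withdrawn control gave -0.10 (95% confidence interval -1.63 to 1.43, adjusted p = 0.96, edgeR), with the opposite sign under 8 of 23 alternatives. The gene lies on chromosome 15 at 101411043 to 101430313, plus strand, 566384 bases from Krt8.

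Markers of other cell types with keratins changed in both directions on withdrawal, and their part in these results was not tested. Each summed level below is carried with LIF2i by 1 gene that was high there, so the sums do not stand for the whole lists. For trophoblast, which makes Krt7, Krt8 and Krt18, 3 of 9 markers were above 1 TPM with LIF2i, 4 to 6 without it and 4 or 5 with CK666. Krt7 is itself 1 of these 9, at 0.69 TPM or less with LIF2i and above 1 TPM in all 6 withdrawn libraries. The summed level was 50.4 to 66.9, 11.4 to 16.2 and 14.4 to 18.8 TPM, most of it Tfap2c with LIF2i. Tpbpa was at 0 in all libraries, Cdx2 at 0.73 TPM or less and Elf5 at 0.40 TPM or less. Others of the list were present: Eomes at 0.95 to 8.31 TPM and Ascl2 at 2.05 to 5.89 TPM over all libraries. Gata3 reached 2.05 TPM and Hand1 1.26 TPM. For primitive or parietal endoderm, 2 or 3 of 8 markers were above 1 TPM in each library, and the sums were 30.8 to 70.2, 12.0 to 36.1 and 14.8 to 28.4 TPM. Most of the sum with LIF2i was Lama1, which encodes a laminin chain, at 61.2, 24.0 and 35.7 TPM, then 5.02, 1.84 and 2.00 TPM without LIF2i and 4.43, 2.29 and 2.91 TPM with CK666. Dab2 went the other way and was at 0.90 to 4.99 TPM with LIF2i, 6.31 to 22.1 TPM without it and 6.99 to 13.6 TPM with CK666. Gata4 was at 3.04 to 3.55 TPM with LIF2i, 1.48 to 6.13 TPM without it and 3.72 to 6.99 TPM with CK666. Gata6, Sox17, Sox7, Pdgfra and Foxa2 stayed under 1 TPM. For surface epithelium, 2 or 3 of 6 markers were above 1 TPM in each library, and the sums were 36.0 to 38.8, 17.2 to 18.8 and 12.8 to 21.4 TPM. There Grhl3, at 32.5 to 34.7 TPM with LIF2i, fell to 1.66 to 2.13 TPM without it. Grhl2 instead rose from 0.027, 0.95 and 1.13 TPM to 14.7, 15.9 and 15.1 TPM (26.7-fold in the fit on counts, adjusted p = 0.0012, edgeR). That fitted size depends on the self-renewing library of replicate 1, with 1 estimated count against 46 and 34 in the others. With CK666 Grhl2 was at 17.4, 10.8 and 10.1 TPM. The defining keratins Krt5 and Krt14 were at 0.49 TPM or less.

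Vim fell on withdrawal in every pair. It stood at 253, 137 and 164 CPM with LIF2i, at 61.1, 47.8 and 43.7 CPM without it and at 95.8, 62.6 and 58.4 CPM with CK666, so that no withdrawn library reached a self-renewing one. The fall was 3.55-fold for withdrawal (log2 -1.83, SE 0.13, adjusted p = 1.33e-05, edgeR) and 2.54-fold between CK666 cells and self-renewing cells (log2 -1.35, SE 0.13, adjusted p = 6.98e-05), and both passed under all 23 alternatives. Against withdrawn controls Vim was higher with CK666 in 3 of 3 pairs, by 1.57-, 1.31- and 1.34-fold, and the groups overlapped. That difference missed the threshold (log2 0.48, 95% confidence interval 0.20 to 0.77, adjusted p = 0.080, edgeR). It passed under 3 of 23 alternatives, among them without the self-renewing library of replicate 1 (0.47, adjusted p = 0.027). The gene lies on chromosome 2 at 13573927 to 13582826, plus strand.

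Markers of fibroblasts and mesenchyme, where Vim is abundant, had a summed level of 9.08 to 14.1 TPM with LIF2i, 31.8 to 40.5 TPM without it and 25.5 to 37.2 TPM with CK666. Thy1 gave most of it without LIF2i. On withdrawal 4 of the 8 rose, beside 21.1% of all genes raised, and Lum was not tested. These were Thy1 (log2 2.32, adjusted p = 0.00029), Col1a2 (3.42, adjusted p = 0.012), Dcn (3.11, adjusted p = 0.040) and Col1a1 (1.01, adjusted p = 0.047, edgeR). With LIF2i Col1a2 was at 0, 0.105 and 1.09 CPM and Dcn at 0, 0.366 and 0.121 CPM, partly below the floor of 3 counts. The fitted sizes of both depend on these low values. Col1a1 overlapped between the control groups. Col3a1 (log2 1.54) and Twist1 (1.24) were higher and Pdgfrb (-0.88) lower in 3 of 3 pairs, and these missed the threshold (adjusted p = 0.27, 0.075 and 0.074, edgeR). In this list 3 to 6 of the 8 markers were above 1 TPM in each library, and Lum was at 0.03 TPM or less in all.

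On withdrawal the 3 lamin genes changed less than the other 5. Lmna stood at 34.6, 30.9 and 29.7 CPM with LIF2i, at 15.8, 19.0 and 28.6 CPM without it and at 11.2, 15.3 and 17.7 CPM with CK666. In CPM each self-renewing library was above each withdrawn one, but in pair 3 the withdrawn control was only 1.04-fold lower. In TPM that pair stood at 20.6 with LIF2i and 21.0 without, so the control groups overlapped on this scale. On withdrawal Lmna fell 1.56-fold (log2 -0.64, SE 0.21, adjusted p = 0.036, edgeR), and this call held under 9 of 23 alternatives. It was lost without the block (adjusted p = 0.140), without replicate 1 (-0.35) or 2 (-0.61), and without any of 7 single libraries (-0.36 to -0.64). CK666 cells were 2.21-fold below self-renewing cells (log2 -1.15, SE 0.21, adjusted p = 0.0029, edgeR), under all 23 alternatives. Against withdrawn controls Lmna was lower with CK666 in 3 of 3 pairs, by 1.40-, 1.24- and 1.61-fold, which missed the threshold (log2 -0.51, 95% confidence interval -0.98 to -0.03, adjusted p = 0.23, edgeR).

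Lmna makes 2 main proteins that part ways at the end of the reading frame, and these ends are shown because they tell which lamin a transcript encodes. The frames of Lmna-201 and Lmna-203 are identical over the first 1705 coding bases and then run to 665 and 574 codons before the stop. The last 30 coding bases are given 5′ to 3′ on the minus strand of GRCm38, with the last 4 codons and the stop codon in capitals. Prelamin A and the B-type lamins end in a CaaX box, a cysteine followed by 3 residues, which is farnesylated, while lamin C has none.
Lmna-201: cagagctcccagaacTGCAGCATCATGTAA
Lmna-203: caccaccgtgtgagtGGCAGCCGCCGCTGA
Lmnb2-204: actacctcaaggggcTGCCGACTGATGTGA
The capitals of Lmna-201 and Lmnb2-204 open with TGC, a cysteine codon, and those of Lmna-203 with GGC, a glycine codon. In Lmna-201 the stretch spans an intron between 88482074 and 88482348 on chromosome 3, in Lmna-203 it lies at 88483297 to 88483326, and in Lmnb2-204 at 80902859 to 80902888 on chromosome 10.

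The lamin C-type Lmna-203 held 76.5% ± 11.0 of the gene's TPM with LIF2i, 51.4% ± 28.2 without it and 51.5% ± 13.1 with CK666 (SD, n = 3). Its level was 25.0, 13.7 and 16.8 TPM with LIF2i, 2.73, 10.2 and 12.2 TPM without it, and 4.02, 6.90 and 6.61 TPM with CK666, and no withdrawn library reached a self-renewing one. The prelamin A-type Lmna-201 held 11.8% ± 2.90, 19.6% ± 8.66 and 17.0% ± 3.30 (SD, n = 3) and stayed between 1.38 and 4.48 TPM in all 9 libraries, with overlapping groups. The shares of both transcripts overlapped between all 3 groups. The spread within the withdrawn controls comes mostly from replicate 1, where Lmna-203 was at 20.4% against 75.7% and 58.0%. In that library Lmna-202, another protein-coding transcript, was estimated at 6.65 TPM, and at 0 in its self-renewing partner. Reads in the shared part are divided by estimation, an error the files do not give, so these shares were not tested.

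Lmnb1, on chromosome 18, was the highest gene of the set in mean TPM in every group. It stood at 403, 419 and 501 CPM with LIF2i, 446, 451 and 482 CPM without it, and 440, 342 and 365 CPM with CK666. On withdrawal the log2 difference was 0.06 (95% confidence interval -0.24 to 0.36, adjusted p = 0.74, edgeR). The CK666 libraries lay below the withdrawn controls without overlap, but the library of replicate 1 was close to its partner, 1.01-fold lower, where the others were 1.32-fold lower. The difference was -0.27 (95% confidence interval -0.57 to 0.03, adjusted p = 0.31, edgeR), and without replicate 1 it was -0.42 and passed (adjusted p = 0.026). Without replicate 1 the difference of -0.37 from self-renewing cells also passed (adjusted p = 0.016), against -0.20 (adjusted p = 0.26) with all libraries.

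Lmnb2, on chromosome 10 at 80901203 to 80918245, stood at 93.1, 104 and 120 CPM with LIF2i, 92.0, 90.2 and 90.1 CPM without it, and 76.1, 69.0 and 66.2 CPM with CK666. The 3 groups did not overlap in CPM. In TPM the self-renewing libraries (40.1 to 49.4) and the withdrawn controls (38.9 to 48.1) did. CK666 cells were 1.50-fold below self-renewing cells (log2 -0.59, SE 0.13, adjusted p = 0.0064, edgeR), a call lost without replicate 2 (-0.60, adjusted p = 0.051) or replicate 3 (-0.44, adjusted p = 0.126). The withdrawal difference was -0.22 (95% confidence interval -0.50 to 0.07, adjusted p = 0.20) and the CK666 difference -0.37 (95% confidence interval -0.65 to -0.08, adjusted p = 0.15, edgeR), the latter in 3 of 3 pairs by 1.21-, 1.31- and 1.36-fold. Without replicate 1 the CK666 difference was -0.43 and passed (adjusted p = 0.040), as it did without the self-renewing library of replicate 1 (-0.38, adjusted p = 0.037).

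Per length, the order of the genes changed between groups. With LIF2i the mean levels were Lmnb1 232, Vim 151, Lmnb2 46.3, Lmna 23.9, Krt8 22.4, Krt19 9.37, Krt18 9.13 and Krt7 0.36 TPM. The ranges of Lmnb1 and Vim, of Lmna and Krt8, and of Krt19 and Krt18 overlapped. Without LIF2i Krt18 (208 TPM) came next to Lmnb1 (249 TPM) with overlapping ranges, followed by Krt8 (82.9), Vim (45.7), Lmnb2 (42.1), Krt19 (21.4), Lmna (15.9) and Krt7 (2.00 TPM). There Krt8, Vim and Lmnb2 overlapped in turn, as did Krt19 and Lmna. With CK666 the order was Lmnb1 (204), Krt18 (188), Vim (64.9), Krt8 (57.8), Lmnb2 (31.7), Lmna (11.3), Krt19 (6.64) and Krt7 (2.26 TPM), and each of the first 5 overlapped its neighbour. Krt19 was thus above Lmna in the mean without LIF2i and below it in the other groups.

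Ratios within a library put these shifts beside each other. The TPM of Krt8 relative to Krt18 was 9.18, 0.907 and 1.25 with LIF2i, 0.386, 0.272 and 0.595 without it and 0.456, 0.247 and 0.311 with CK666. The pair was near parity in 2 self-renewing libraries, Krt8 was in large excess in that of replicate 1, and Krt18 was in excess in all 6 withdrawn libraries. Vim relative to the sum of the 4 keratins was 4.20, 2.97 and 3.39 with LIF2i, 0.365, 0.0804 and 0.106 without it, and 0.821, 0.194 and 0.119 with CK666, a fall of 23.9-fold on withdrawal in the geometric mean. Without replicate 1 the log2 change on withdrawal was -5.10 for the Vim ratio, against -4.58 with all libraries, and -1.40 for Krt8 to Krt18, against -2.46. Lmna relative to the B-type lamins was 0.0960, 0.0920 and 0.0700, then 0.0418, 0.0504 and 0.0734, then 0.0356, 0.0543 and 0.0589.

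With 3 libraries against 3 the exact two-sided permutation test cannot go below p = 0.1. The keratin ratio and the Vim ratio reached 0.1 in both comparisons with self-renewing cells, as did the lamin ratio for CK666 cells against self-renewing cells. Lmna relative to the B-type lamins gave p = 0.2 for withdrawal in the same exact test. For CK666 against withdrawn controls all 3 ratios overlapped between groups (exact permutation p = 0.6, 0.5 and 0.7). This test does not use the pairing, and within same-numbered pairs the Vim ratio was higher with CK666 in 3 of 3.

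**Figure D3:**
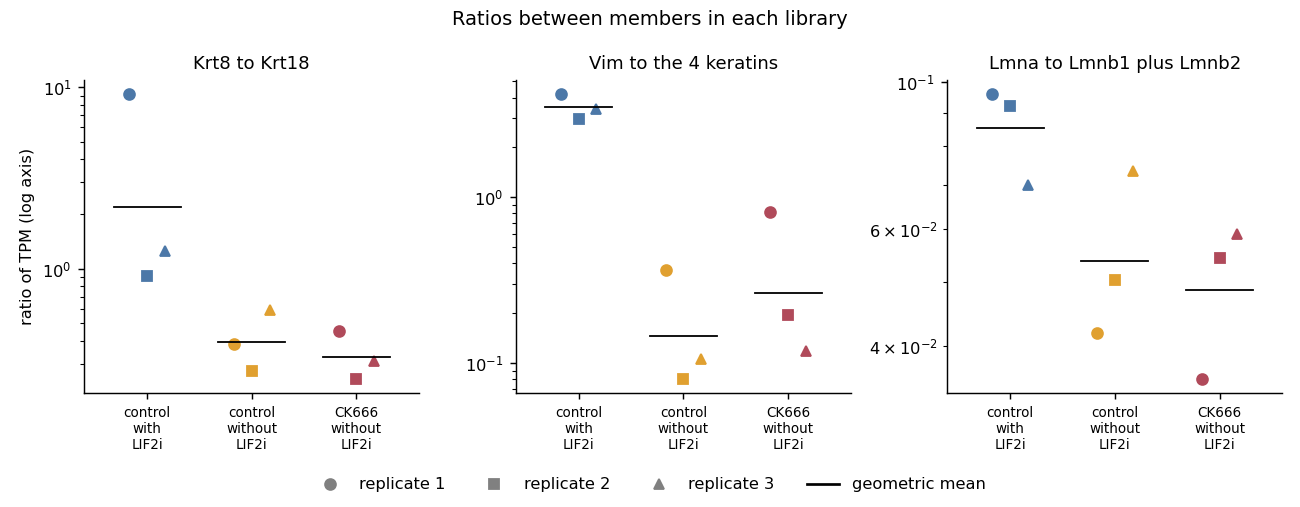
Ratio of TPM values within each library, on log axes, for Krt8 to Krt18, Vim to the 4 keratins, and Lmna to the sum of Lmnb1 and Lmnb2, with symbols for replicates and a line for the geometric mean. The first 2 ratios separate self-renewing from withdrawn libraries, with Krt8 to Krt18 at 9.18 in the self-renewing library of replicate 1.

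The transcript make-up of Vim set replicate 1 apart from the other libraries. The retained-intron transcript Vim-204 was estimated at 43.8, 23.5 and 33.3 TPM in replicate 1 of the self-renewing, withdrawn and CK666 groups, and at 0 to 1.52 TPM in all 6 others. The main coding transcript Vim-201 held 87.0% ± 7.95 of the gene's TPM with LIF2i, 75.6% ± 21.0 without it and 74.6% ± 12.9 with CK666 (SD, n = 3). Its own level was 202, 80.0 and 106 TPM with LIF2i, 36.7, 31.7 and 28.2 TPM without it and 59.4, 39.4 and 38.9 TPM with CK666. The coding transcript alone thus separated self-renewing from withdrawn libraries too, and was higher with CK666 than in the withdrawn control of each number. Krt8 and Krt18 have 1 annotated transcript each in the files.

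**Figure D4:**
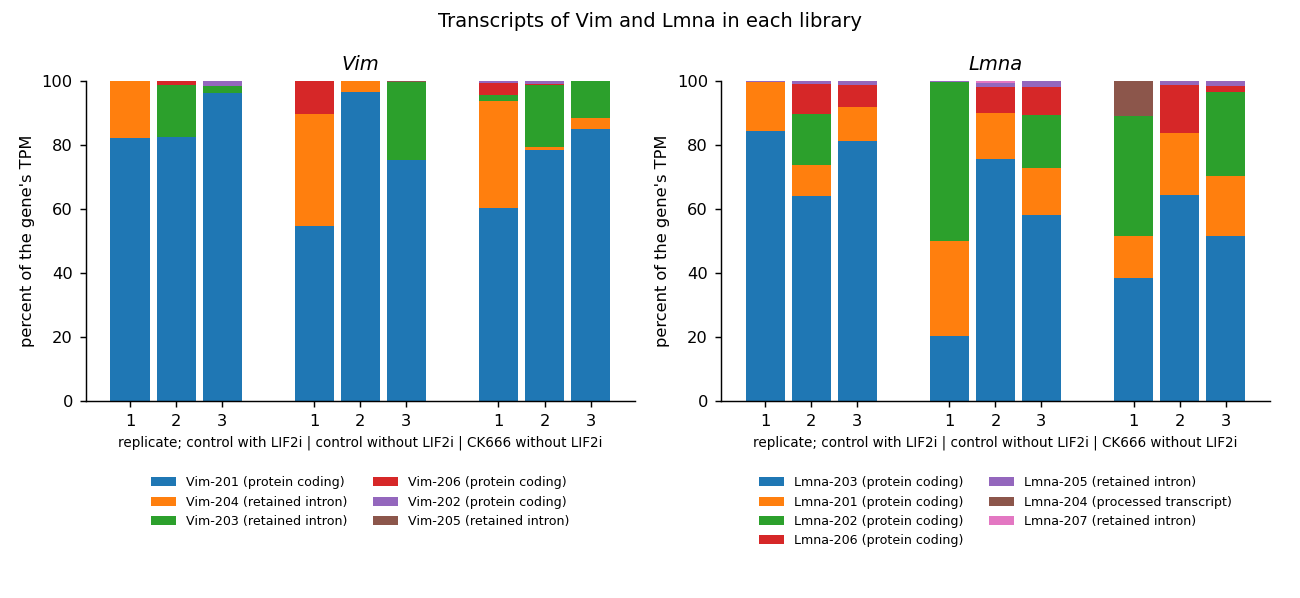
Share of each annotated transcript in the TPM of Vim (left) and Lmna (right), as stacked bars from 0 to 100% for replicates 1 to 3 of each group in the order control with LIF2i, control without LIF2i and CK666 without LIF2i. The retained-intron Vim-204 takes 17.8 to 35.0% in the replicate 1 libraries and at most 3.3% elsewhere, and Lmna-203 drops to 20.4% in the withdrawn control of replicate 1.

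Copies of these genes could take or lend reads. Of the 31-base words in the Krt8 transcript, 32.3% also occur in transcripts of other genes, nearly all in the processed pseudogene Krt8-ps (32.2%), and for Krt18 11.4% do, with 9.31% in the pseudogene Gm5200. Both pseudogenes were listed at 0 estimated counts in all 9 libraries. The share was 3.08% for Krt7, 0.808% for Lmnb2, 0.517% for Krt19, 0.416% for Vim and 0 for Lmna and Lmnb1. In addition 5.16% of Krt8's exonic bases overlap Gm36026 and 1.09% of Krt7's overlap Gm671, each on the opposite strand, and the sources used here do not say whether counting used strand.

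Among the other keratins the share called on withdrawal was near that of all genes. Of 50 other keratin genes 9 passed the filter, and 1 rose and 3 fell, beside 40.7% of all genes called (median log2 change -0.31, beside 0.01 over all genes). Krt42 went from 22.8, 25.4 and 23.0 CPM with LIF2i to 0.145, 1.04 and 0.216 CPM without it (log2 -5.80, SE 0.46, adjusted p = 2.39e-05, edgeR), and was at 0.806, 1.13 and 0.838 CPM with CK666. Krt17, a keratin of basal and stressed epithelium, went from 26.1, 7.11 and 6.92 CPM to 0.965, 1.51 and 2.21 CPM (log2 -2.81, SE 0.55, adjusted p = 0.0034, edgeR). The fall was largest in replicate 1, so the fitted size leans on it. With CK666 Krt17 was at 1.04, 0.736 and 0.447 CPM. Krt16 also fell, from 0.607 to 2.46 CPM to at most 0.216 CPM, but 51.9% of its 31-base words occur in other genes. For Krt17 this share was 15.8% and for Krt42 5.29%. Krt12, a cornea keratin, was listed at 0 in all self-renewing libraries, where 3 counts equal 0.139 to 0.178 CPM, and stood at 0.917, 1.82 and 0.971 CPM without LIF2i. Under CK666 none of the 9 was called, beside 2.05% of all genes, and against self-renewing cells 2 were higher (Krt12 and Krt78) and 3 lower (Krt42, Krt17 and Krt16), beside 19.8% raised and 17.1% lowered over all genes. The higher count was 1 without the block and ran from 0 to 2, holding in 10 of 23 alternatives. Krt78 was at 0, 0.157 and 0 CPM with LIF2i, about the floor of 3 counts or below. Krt12 and Krt78 thus passed the filter through withdrawn libraries, and Krt16, low in these, through self-renewing ones. The direction of their calls against self-renewing libraries follows from that, so these calls are a description only.

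Other intermediate filament genes were mostly higher after withdrawal. Of 14, 12 passed the filter, and 7 rose and 1 fell on withdrawal, beside 21.1% raised and 19.7% lowered over all genes, with a median log2 change of 1.16 beside 0.01. The largest rises were in filament genes of neurons and muscle: Nefm (log2 2.22, SE 0.67, adjusted p = 0.028), Ina (2.20, SE 0.20, adjusted p = 4.21e-05) and Synm (2.14, SE 0.15, adjusted p = 1.26e-05, edgeR), while Iffo1 fell (log2 -0.94). Under CK666 1 was called, beside 2.05% of all genes. Nes, which encodes nestin, the filament protein of neural progenitors, stood at 54.1, 70.8 and 51.7 CPM with LIF2i, 128, 143 and 186 CPM without it, and 65.4, 45.2 and 83.8 CPM with CK666. The withdrawn controls did not overlap either other group, and the CK666 difference was -1.24 (SE 0.22, adjusted p = 0.031, edgeR), lower in 3 of 3 pairs. Without the block no gene of this list was called for CK666, and across 23 alternatives the list's count of lowered genes ran from 0 to 3. Against self-renewing cells 5 of 12 were higher in CK666 cells, led by Prph (log2 2.59), Synm (2.26) and Ina (1.65), and none was lower, beside 19.8% raised and 17.1% lowered over all genes. Without the block 3 were higher, beside 20.2% of all genes called.

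Linker proteins that tie filaments to desmosomes and to the rest of the cytoskeleton were mixed. Of 14, 13 passed the filter, and 7 rose and 2 fell on withdrawal (median 0.63), beside 21.1% raised and 19.7% lowered over all genes. The plakin genes Ppl (log2 2.28, SE 0.21) and Evpl (1.63, SE 0.21) and the plakophilin Pkp2 (1.20, SE 0.15) rose most. Dsp, which encodes desmoplakin, the link from desmosomes to keratin, fell from 186, 84.6 and 84.3 CPM to 37.1, 52.4 and 64.2 CPM (log2 -1.16, SE 0.34, adjusted p = 0.026, edgeR). Its fall was largest in replicate 1. Dst fell too (log2 -0.77). Under CK666 none of the 13 was called, beside 2.05% of all genes, but 6 were lower and called without replicate 1, beside 6.19% of all genes lowered. Against self-renewing cells 4 were higher, with Ppl (2.07), Evpl (1.59) and Dsc2 (1.31) ahead, and 2 lower, Dsp (-1.94) and Dst (-0.62), beside 19.8% raised and 17.1% lowered over all genes. Without the block the withdrawal counts were 4 raised and 1 lowered, and those against self-renewing cells 3 and 1, beside 24.0% and 20.2% of all genes called. The lowered count against self-renewing cells was 4 without replicate 1 and within 1.5 times the main count in 10 of 23 alternatives.

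All 16 nuclear envelope partners of lamins passed the filter, and on withdrawal 2 rose and 4 fell (median 0.09), a share near the 40.7% called over all genes. Sun1, an inner membrane protein that links lamins to the cytoskeleton, went from 222, 314 and 313 CPM to 97.8, 124 and 101 CPM and was at 92.9, 135 and 120 CPM with CK666 (withdrawal log2 -1.38, SE 0.12, adjusted p = 3.42e-05, edgeR). Syne1 (log2 -1.01) and Sun2 (-0.83) fell as well, and Syne2 (0.51) and Lemd3 (0.40) rose. Without the block the withdrawal counts were 0 raised and 3 lowered, and against self-renewing cells 0 and 1, beside 24.0% and 20.2% of all genes called. None was called under CK666, beside 2.05% of all genes, and against self-renewing cells 1 was higher (Syne2, 0.51) and 4 lower, with Sun1 (-1.28), Syne1 (-0.78) and Sun2 (-0.67) ahead, beside 36.9% of all genes called. Of 5 enzymes that process lamins, all tested, Rce1 rose (0.38) and Fntb fell (-0.49) on withdrawal. None was called under CK666, and Fntb was lower in CK666 cells than in self-renewing ones (-0.84). Over all genes 40.7%, 2.05% and 36.9% were called in these 3 comparisons, so the counts of 2, 0 and 1 of 5 are near or below the background. The call of a raised enzyme on withdrawal was lost without the block and held in 6 of 23 alternatives.

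**Figure D5:**
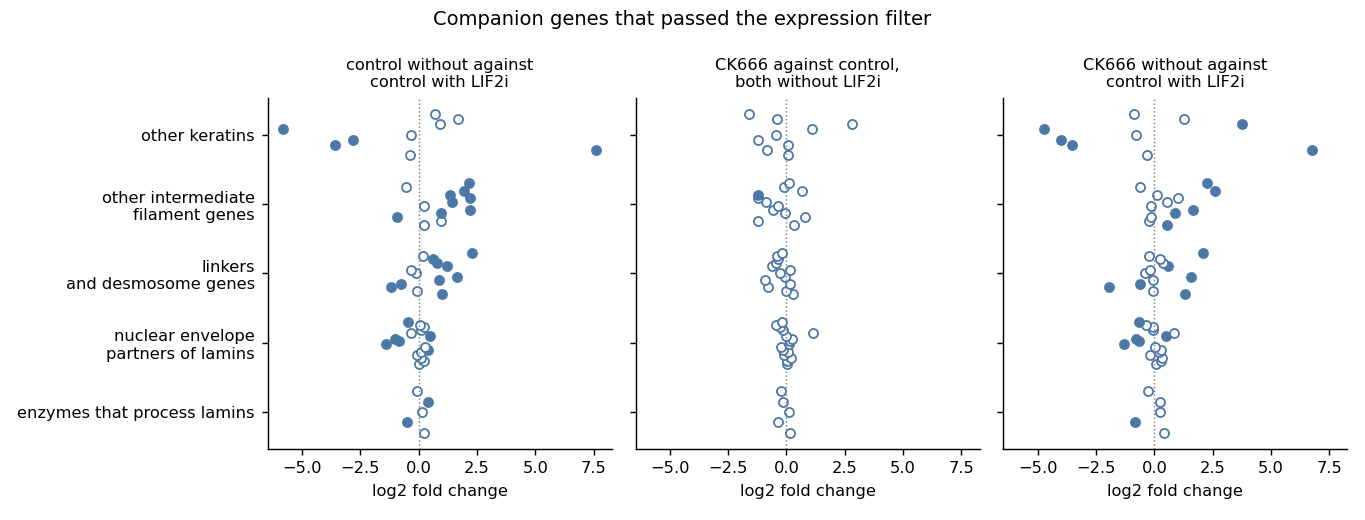
Log2 fold change of each companion gene that passed the expression filter, by list and comparison, with filled points for an adjusted p under 0.05 in edgeR's fit with the replicate block. Only 1 point, Nes, is filled in the CK666 panel, and the filled points of the other intermediate filament genes lie mostly right of 0 on withdrawal.

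Genes whose log2 CPM followed each member most closely over the 9 libraries were read off among 9497 or 9498 protein-coding genes. The libraries share 3 groups and 3 replicate numbers, so high correlations are common and carry no test. Vim was followed by Zc3hav1 (Pearson r 0.99) and Sema4b (0.99), Krt18 by Pi4k2b (0.99) and Mapk12 (0.99), and Krt7 by Mxra7 (0.99) and Fam102b (0.99). Krt8 was followed by Cnn2 (0.98), an actin-binding calponin, and Dapk3 (0.97). Krt19 was followed by Arpc5 (0.97), which encodes a subunit of the Arp2/3 complex, and Ccdc25 (0.96). The lamin genes were followed by Rabl3 (0.96) and Ndrg3 (0.96) for Lmna, Ddx55 (0.96) and Rbm6 (0.94) for Lmnb1, and Dscc1 (0.98) and Tdgf1 (0.97) for Lmnb2. Within the set, r was -0.97 between Vim and Krt18, 0.78 between Krt8 and Krt18, 0.37 between Krt18 and Krt19 and 0.75 between Lmnb1 and Lmnb2.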

How the data were processed

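Per the submitters' processing notes, reads were handled with FastQC, cutadapt 1.8.1, kallisto and sleuth. The transcript release, strand setting and other versions are not given in the sources used here, and the notes name the builds mm10 and GRCh38 without a role. The authors deposited, per the file headers, estimated counts and TPM for 119414 transcripts in each of 9 libraries, and an effective length, used here only for an offset. TPM is scaled by the authors per effective length to a fixed sum.

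Transcripts were assigned to genes by Ensembl ID with GENCODE M21 (GRCm38). A gene was found for 116640 (97.7%), and the other 2774, with 0.895 to 1.08% of counts, were left out. Estimated counts were summed per gene and rounded. Promoters and starts come from RefSeq (GRCm38.p6), coding ends from GENCODE.

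All 9 libraries entered 1 robust quasi-likelihood fit in edgeR 4.0.16 (R 4.3.3) with TMM scaling, edgeR's expression filter (14648 genes kept), the replicate number as a block and 4 residual degrees of freedom. Calls were made at an adjusted p under 0.05 (Benjamini-Hochberg, over all genes tested). Scripts were tested on simulated data. The block follows the series description, where replicates are called paired. Deviations of same-numbered libraries from their group means correlated at 0.30 to 0.65 (median 0.41), those of differently numbered libraries at 0.21 to 0.29 between replicates 2 and 3 and at -0.53 to -0.35 where 1 was of replicate 1. Alternatives used DESeq2 1.42.0, limma 3.58.1 (voom, and log2 of TPM plus 1 or 0.1), other scalings, filters and sets of libraries. The labels do not say what separates the replicates, so p-values cover the spread between these cultures. Floors reflect counting error alone, because copies made by PCR cannot be told from separate molecules.

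Named genes are the 8 members, up to 3 called genes per direction from each companion list, and the 2 most correlated genes per member with a mean log2 CPM (prior count 2) of at least 3. The members and lists were chosen with earlier results of these data known.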

Additional observations from a re-analysis of the deposited data

Results flagged for a closer look

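Krt19 stood out because its change on LIF2i withdrawal differed between the arms with and without CK666. In log2 terms it changed by 1.17 in control cells and by -0.50 in CK666 cells, both against the same self-renewing libraries, a difference of -1.67 (SE 0.29, adjusted p = 0.030, edgeR's quasi-likelihood test with the replicate block). Because the self-renewing libraries are shared, this difference is the comparison of CK666 with withdrawn controls given above, and not a second test. It had the same sign in 3 of 3 pairs. It passed the threshold under 12 of 23 alternatives and not without the block, where the adjusted p was 0.413.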

How the results depend on the processing

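Among the member results under 23 alternatives, 457 kept their direction and side of the threshold, 71 no longer passed, 15 newly passed and 9 changed sign; the causes were not tested. Without the replicate block the genes called were 3509 for withdrawal, 0 for CK666 (edgeR, 1251 at an unadjusted p under 0.05) and 2966 for CK666 cells against self-renewing cells, and the members called were 3 and 0 in the first 2. For CK666 the genes called were 1136 with DESeq2, 553 with voom, 149 with length offsets, 565 without a low-count filter, 1367 with only the 2 groups compared, and 42 and 23 on log2 TPM with a pseudocount of 1 and 0.1. The members called for CK666 were 2 with DESeq2, 4 with only the 2 groups (3 for withdrawal), and 0 with length offsets or on log2 TPM. On log2 TPM without a filter the genes called were 3880, 1 and 3079, and the members called 2 for withdrawal and 0 for CK666.

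Leaving out 1 library or replicate number gave 3099 to 6588, 0 to 1811 and 2413 to 6129 genes and 2 to 5, 0 to 4 and 3 to 7 members called. The CK666 change of Krt7, within its error of 0, turned to 0.31 with length offsets and to 0.11, 0.15 and 0.11 on log2 TPM, and ran from -0.73 to 0.18 with 1 left out. Lmnb1 on withdrawal ran from -0.015 to 0.16 with 1 left out, and the log2 Krt8 to Krt18 ratio for CK666 from -0.54 to 0.051.

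By estimated counts Vim-201 held 96.1% with LIF2i and 90.8% with CK666, Krt19-201 83.7% without LIF2i, and Lmna-201 18.7, 31.0 and 27.8% in the 3 groups. Among coding transcripts alone Vim-201 held 99.0% with LIF2i and 97.3% with CK666. Krt19-201, the only coding transcript of its gene, is at 100% there by definition. Of 690 companion list counts 140 moved by over 1.5 times. Krt7, Krt12 and Krt16 lie within a few CPM of the floor that depth sets.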
